A study of Danio rerio with 8 samples.

Results

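Heat shock proteins and chaperones are the proteins that fold, refold and hold other proteins. They were compared here between the cornea and the epidermis of adult zebrafish. Genes were taken by their symbols: the heat shock proteins (*hsp* and *hspa* to *hspe*), heat shock factors (*hsf*), J-domain proteins (*dnaj*), chaperonin subunits (*cct* and *tcp1*), BAG co-chaperones (*bag*), the Hsp70-Hsp90 organiser *stip1* and the FK506-binding immunophilins (*fkbp*). The rule used no measured value. It found 110 of the 14462 genes measured, represented by 180 probes. Of these, 4 share only the name (*tcp11l1*, *tcp11l2*, *hsf2bp* and *hspbap1*) and are no chaperones, which left 106.

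Both tissues came from adult fish of the AB2O2 wild-type strain. The cornea was freed from the rest of the eye by dissection. Epidermis was collected by scraping off the scales that carry it, and scale cells may therefore contribute to its RNA. Tissue of several animals had been pooled for each of the 4 biological repeats, and its RNA was amplified linearly. Each repeat was hybridised on 2 two-colour arrays with exchanged dyes, repeats 1 and 2 on one slide and repeats 3 and 4 on the other.

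In the folding cycle of the cytosol, J-domain proteins bring unfolded clients to Hsp70 and stimulate its ATPase, nucleotide exchange factors such as the Hsp110 and BAG proteins release them, and Stip1 hands some of them on to Hsp90, which matures kinases and nuclear receptors. The ring-shaped chaperonin CCT folds actin and tubulin, while Hsp60 with its lid Hsp10 acts in mitochondria and BiP and Grp94 act in the endoplasmic reticulum (ER). Small heat shock proteins, to which the alpha crystallins of the lens belong, hold unfolded proteins without ATP. Hsf1 drives the inducible genes of the set upon heat and other stress, whereas the constitutive ones are expressed at rest.

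The arrays gave log2 ratios of cornea over epidermis, so that 1 on this scale is a 2-fold difference and a value above 0 means higher in cornea. A gene's value is the mean over its probes and then over the repeats, and errors are SDs between the 4 repeats. A gene was called when limma's moderated test against 0, two-sided and adjusted over all genes by Benjamini-Hochberg, gave an adjusted p under 0.05. Repeats correlated at r between 0.544 and 0.703 across probes. Nothing deposited with the ratios states which tissue is on top. The direction used follows the order of tissues in the labels, and all 7 cornea markers (*tnn*, *pax6b*, *pax6a*, *coch*, *scinlb*, *kera* and *tgfbi*) were called higher, with a median of 2.62. Of 6 measured skin and scale markers, 4 were called lower and the other 2, *cldni* and *and2*, were not called. Both lists were chosen with earlier results of these data known, so these counts are not an independent check of the direction. Among markers of other cells the samples could hold, 1 of 5 photoreceptor genes (*gnat2*, 2.69) was higher and none was lower, 1 of 5 blood and leukocyte genes was higher and 3 were lower, and 1 of 7 proliferation genes was higher and 2 were lower. Their part in the values that follow was not tested. The gene names hold only under a probe grid rearranged on the evidence of the data themselves. In bulk tissue, a lower share of the cells that express a gene and less RNA per cell cannot be told apart.

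Among the 110 genes, 30 were called higher in cornea and 16 lower, or 27.3% and 14.5%. Over all genes, 22.9% were called higher and 13.8% lower, 36.7% in all. The median log2 ratio was 0.10 over the set and 0.03 over all genes. The set as a whole therefore lay close to the background in both directions, and its genes ran from -1.77 (*dnajb14*) to 2.68 (*hsp90ab1*). A difference of more than 2-fold was called for 14 genes higher and 6 lower, or 12.7% and 5.45%, against 10.3% and 4.87% of all genes. With any 1 repeat left out, 36 of the 46 called genes were called the same way, 25 of them higher and 11 lower. None of the 4 genes that only share the name was called.

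The counts by class are read beside the shares over all genes, 22.9% higher and 13.8% lower. The Hsp90 family had 3 genes higher and 1 lower of 4. The Hsp70 family had 4 higher and 1 lower of 13 (30.8% and 7.69%), and the chaperonins 5 and 1 of 9 (55.6% and 11.1%). The J-domain proteins had 8 higher and 8 lower of 43 (18.6% each). In all, 37.2% of the J-domain proteins and 38.5% of the Hsp70 family were called, near the 36.7% of all genes. No heat shock factor was called higher, and 1 of 4 was called lower. Classes of this size are described only by their counts, and no difference between classes was tested.

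**Figure D1:**
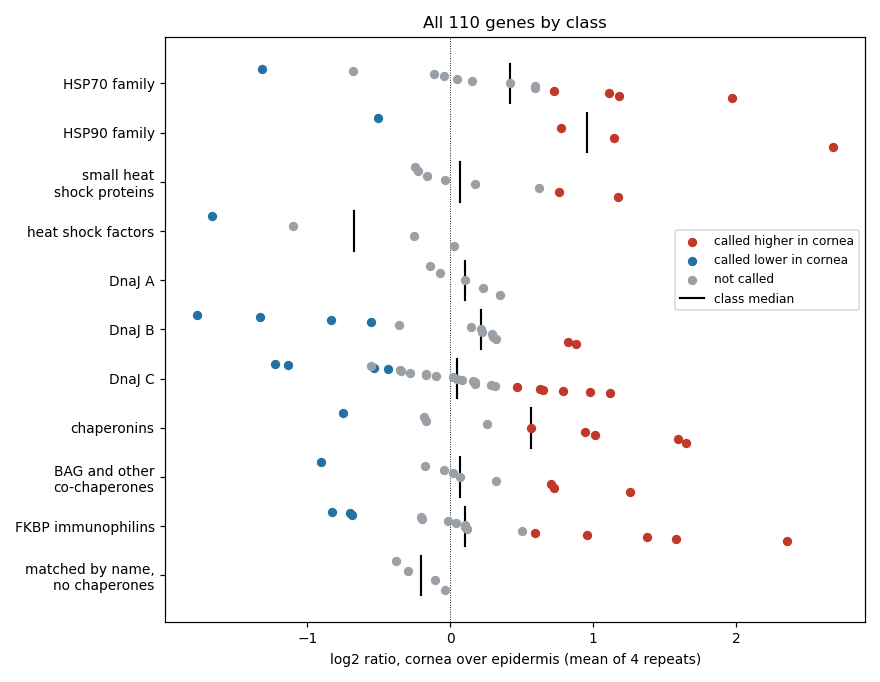
Log2 ratio of cornea over epidermis (horizontal axis, mean of 4 repeats) for each of the 110 genes, in rows by class. Red points were called higher in cornea, blue points lower and grey points were not called, and each black bar is the median of its class. The Hsp90 family and the chaperonins have medians of 0.96 and 0.56, and the heat shock factors one of -0.68.

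Hsp90 genes carried the highest ratio of the set. *hsp90ab1*, the constitutive cytosolic Hsp90, had log2 ratios of 2.62, 2.75, 2.74 and 2.60 in repeats 1 to 4, a mean of 2.68 ± 0.08 (SD, n = 4) or 6.41-fold higher in cornea (limma, adjusted p = 5.66e-05). All repeats lay within a narrow range far above 0. Its 4 probes read 3.73, 3.13, 3.12 and 0.73, so the size of the difference depended on the probe while its direction did not. *hsp90b1* encodes Grp94, the Hsp90 of the ER, and its log2 ratios of 0.98, 1.18, 1.06 and 1.36 averaged 1.15 ± 0.17 (adjusted p = 0.000872). This call rested on 1 of its 2 probes, which read 2.35, whereas the other read -0.06. Probes were tested in the same way over all 45220 features, of which 14% were called higher and 10.4% lower.

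The 2 *hsp90aa1* genes lie next to each other in the RefSeq gene table and moved apart. *hsp90aa1.2* had log2 ratios of 1.17, 0.71, 0.34 and 0.87 and a mean of 0.77 ± 0.35 (adjusted p = 0.0118). It was called higher, but not without repeat 4 (adjusted p = 0.0528) or in the arrays with cornea in Cy5 (adjusted p = 0.0982). The call was also lost within each slide. Of its probes, 1 was called higher at 1.08 and the other was not called at 0.46. *hsp90aa1.1*, known in zebrafish for the folding of myosin in skeletal muscle, had -0.49, -0.11, -0.51 and -0.90 and a mean of -0.51 ± 0.32 (adjusted p = 0.0472). Every repeat lay below 0, yet neither of its probes was called alone, and the call was lost without repeat 1, 3 or 4 (adjusted p = 0.103, 0.129 and 0.165) and with the replicate block (adjusted p = 0.368). Copies as alike as these may bind each other's probes, so the split between them is uncertain. Repeat by repeat, the log2 ratio of *hsp90ab1* exceeded that of *hsp90aa1.1* by 3.12, 2.87, 3.25 and 3.51. Of 14 skeletal muscle markers measured, 6 were called higher in cornea and 2 lower, with single genes between -1.28 (*tmod4*) and 3.04 (*atp2a1*). Their part in the *hsp90aa1.1* value was not tested.

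In the Hsp70 family the constitutive *hspa8* and the heat-inducible *hsp70l* went in opposite directions. *hspa8* encodes Hsc70, the Hsp70 of unstressed cells, and had log2 ratios of 1.03, 1.01, 1.08 and 1.33, a mean of 1.11 ± 0.15 (2.16-fold higher in cornea, adjusted p = 0.000901). *hsp70l*, the heat-inducible gene whose promoter is in wide use for heat shock transgenes in zebrafish, had -1.21, -1.51, -1.62 and -0.93, a mean of -1.31 ± 0.31 (2.49-fold lower, adjusted p = 0.00112). The repeats of these genes did not overlap, and the difference between their log2 ratios within a repeat lay between 2.23 and 2.69. On single arrays *hsp70l* ran from -1.64 to -0.87, below 0 on all 8. It had 1 probe, and that of another close copy, *hspa1b*, gave 0.42 ± 0.56 with repeats on both sides of 0 (adjusted p = 0.197). *hspa8b*, by its name a copy of *hspa8*, had a mean of 0.05. Its probes read 0.43, -0.02 and -0.27, none of them called. The contrast was thus seen only between *hspa8* and *hsp70l*. Of the *hspa8* probes, 2 were called higher, the weaker of them at 1.68, and the other lay at -0.45, not called in the test over probes. With that probe alone standing for the gene, as its probe of smallest variance, *hspa8* was called lower (limma, adjusted p = 0.0252). The values of these near-identical genes are also uncertain where a probe may bind more than 1 of them.

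The exchange factors and the organelle Hsp70s were higher in cornea where they were called. *hspa4a*, an Hsp110-type exchange factor, had log2 ratios of 1.58, 1.83, 2.01 and 2.45 and a mean of 1.97 ± 0.37 (3.92-fold, adjusted p = 0.000365). Its paralogue *hspa4b* had a smaller difference at 0.73 ± 0.08 (adjusted p = 0.00364), and the other gene of the group, *hspa4l*, was not called at -0.12. *hspa9*, the Hsp70 of mitochondria, had log2 ratios between 1.02 and 1.34 and a mean of 1.18 ± 0.13 (adjusted p = 0.000683). All 4 *hspa9* probes were above 0, between 0.25 and 2.85. *hspa5*, which encodes BiP, the Hsp70 of the ER, had 0.89, 0.35, 0.03 and 1.08 and a mean of 0.59 ± 0.48. It missed the threshold (adjusted p = 0.0612), and passed it in 4 alternatives, among them without repeat 3, the lowest (0.77, adjusted p = 0.0388), and with the replicate block (adjusted p = 0.0204). *hspa12a* and *hspa12b*, distant relatives of Hsp70, were not called at -0.68 and 0.59.

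Heat shock factors were the class with the lowest median. *hsf2*, a factor known for roles in development as well as in stress, had log2 ratios of -1.71, -1.46, -1.76 and -1.73 in repeats 1 to 4, a mean of -1.67 ± 0.14 (3.17-fold lower in cornea, adjusted p = 0.000224). *hsf1*, the master factor of the heat shock response, had -0.71, -2.59, -0.25 and -0.86 and a mean of -1.10 ± 1.03, which was not called (adjusted p = 0.0600). All repeats of *hsf1* lay below 0, and the spread came from repeat 2. There one of its 2 probes read -4.30, against -0.34, 0.51 and -0.27 in the other repeats, and the gene value on a single array of that repeat was -4.19. The other *hsf1* probe was lower in every repeat, at between -1.44 and -0.89 (mean -1.10, called on its own with an adjusted p of 0.0041 over the probes). The gene was called in 6 alternatives, among them without repeat 3 (adjusted p = 0.0485). *hsf4*, which is known for its part in lens development, read 0.03, and *hsf5* read -0.25, neither of them called.

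**Figure D2:**
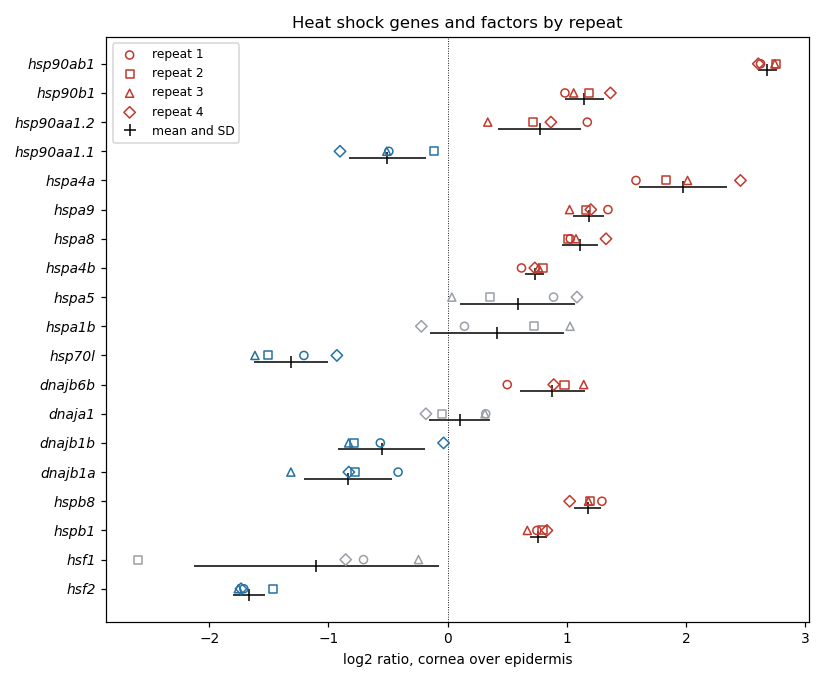
Log2 ratio of cornea over epidermis (horizontal axis) in each of the 4 repeats (open symbols) for Hsp90, Hsp70, J-domain, small heat shock and heat shock factor genes, with the mean and SD in black beneath. Colours are red for called higher in cornea, blue for called lower and grey for not called. The repeats of *hsp90ab1* sit between 2.60 and 2.75, those of *hsp70l* between -1.62 and -0.93, and *hsf1* has 1 repeat far from the others at -2.59.

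The heat-inducible J-domain genes followed *hsp70l* in sign. *dnajb1a* and *dnajb1b* are the zebrafish copies of the gene for Hsp40, the inducible partner of Hsp70. *dnajb1a* had log2 ratios of -0.42, -0.78, -1.31 and -0.83 and a mean of -0.83 ± 0.37 (adjusted p = 0.00986), and both of its probes were called lower. *dnajb1b* had -0.56, -0.79, -0.83 and -0.03 and a mean of -0.55 ± 0.37 (adjusted p = 0.0431). Repeat 4 lay near 0, and the call was lost without repeat 1, 2 or 3 (adjusted p = 0.102, 0.130 and 0.152). *dnaja1*, a constitutive partner of Hsc70, read 0.10 ± 0.26. None of the 5 class A genes was called (against 36.7% of all genes), with values from -0.14 to 0.35. *dnaja2a* in this class had 1 probe called higher at 1.81 and 1 called lower at -0.92, which its mean of 0.35 conceals.

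Of 13 class B genes, 2 were higher and 4 lower (15.4% and 30.8%, against 22.9% and 13.8% of all genes). *dnajb6b*, of a family known to keep polyglutamine proteins from aggregating, was higher, with 0.50, 0.98, 1.14 and 0.89 and a mean of 0.88 ± 0.27 (adjusted p = 0.00443), whereas its paralogue *dnajb6a* was not called at -0.36. *dnajb14*, a J-domain protein of the ER membrane, had the lowest ratio of the set, with -1.99, -1.55, -1.82 and -1.72 and a mean of -1.77 ± 0.18 (3.42-fold lower in cornea, adjusted p = 0.000222). All of its values came from 1 probe. Of 25 class C genes, 6 were higher and 4 lower (24% and 16%), near the shares of 22.9% and 13.8% over all genes. *dnajc8*, a protein of the spliceosome, was the highest at 1.12 ± 0.19 (adjusted p = 0.00105), followed by *dnajc5gb*, of the cysteine string protein family of vesicles, at 0.98 ± 0.33 (adjusted p = 0.00396). *dnajc3b* of the ER and *dnajc19* of mitochondria were the lowest. The remaining class C calls were smaller. *dnajc1*, *dnajc3a*, *dnajc4* and *dnajc9* each lost their call when 1 or another repeat was left out (adjusted p between 0.0576 and 0.126), and *dnajc10* and *dnajc17* kept theirs.

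Handling during dissection can raise heat shock genes, so a list of 21 measured immediate-early and stress genes was read beside the inducible set. Of these, 10 were called lower in cornea and 5 higher, with a median of -0.49. The shares were 47.6% lower and 23.8% higher, against 13.8% and 22.9% of all genes. *ddit4* (-3.99), *atf3* (-1.60) and *egr3* (-1.59) were the lowest, and *gadd45ba* (1.47) and *dusp1* (1.11) the highest. The 2 probes of *dusp1* were called in opposite directions, at 3.34 and -1.13, and those of *gadd45ba* ran from -0.20 to 2.72. In the set, *hsp70l* (-1.31), *dnajb1a* (-0.83) and *dnajb1b* (-0.55) were called lower. *hsp90aa1.2* (0.77), *hspb1* (0.76) and *bag3* (0.73), which heat also induces in vertebrates, were called higher. *hsp90aa1.1*, the neighbour of *hsp90aa1.2*, was called lower at -0.51, and *hspa1b*, a close copy of *hsp70l*, was not called at 0.42. These genes were picked and are no full list of inducible ones. The part of handling in these values was not tested.

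Of the 8 small heat shock proteins, 2 were higher and none lower. Their share called higher, 25%, lay near the 22.9% of all genes, of which 13.8% were called lower. *hspb8*, which works with Bag3 in chaperone-assisted autophagy, had log2 ratios of 1.29, 1.19, 1.18 and 1.02 and a mean of 1.17 ± 0.11 (2.25-fold, adjusted p = 0.000649). *hspb1*, the Hsp27 gene, which binds actin filaments and is abundant in epithelia, had 0.75, 0.80, 0.67 and 0.83 and a mean of 0.76 ± 0.07 (adjusted p = 0.00298). Their repeats were tight and all above 0, and so were all of their probes, at 2.40, 0.74 and 0.39 for *hspb8* and at 0.92 and 0.61 for *hspb1*. The 6 others ran from -0.25 to 0.62 and were not called. Of the *hspb6* probes, 1 was called lower at -0.86 and the other was not called at 0.36. Of the alpha crystallins, which the symbols left out, *cryabb* was called higher at 0.49, and *cryaba* and *cryaa* were not called at 0.22 and -0.15. Of 9 lens markers measured, 1 was called higher and 2 lower, with a median of -0.15.

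Among the BAG proteins and other co-chaperones, 3 of 9 were higher and 1 was lower. These shares were 33.3% and 11.1%, against 22.9% and 13.8% of all genes. *bag1*, an exchange factor of Hsp70, had 1.58 in repeat 4 and slightly lower log2 ratios, down to 1.101, in the others, with a mean of 1.26 ± 0.22 (adjusted p = 0.000826), with both probes called. *bag3*, the partner of Hspb8, had 0.65, 0.77, 0.74 and 0.75 and a mean of 0.73 ± 0.05 (adjusted p = 0.00345). Thus the genes of both partners were higher in every repeat. *bag6*, which guides tail-anchored proteins to the ER, was higher at 0.70 ± 0.07 (adjusted p = 0.00404), and its paralogue *bag6l* was lower at -0.91 ± 0.24 (adjusted p = 0.00308). In each repeat *bag6* exceeded *bag6l* by between 1.39 and 1.79. *stip1*, the link between Hsp70 and Hsp90, was not called at -0.18 ± 0.19, with all repeats below 0.

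The subunits of CCT did not move as one. Of 7 measured, 4 were higher (57.1%, against 22.9% of all genes). None was lower (against 13.8% of all genes), and the median was 0.56. *cct7* had log2 ratios of 1.69, 1.48, 1.74 and 1.67 and a mean of 1.65 ± 0.11 (3.13-fold, adjusted p = 0.000219), and *cct5* had 1.48, 1.62, 1.63 and 1.65 and a mean of 1.59 ± 0.08 (3.01-fold, adjusted p = 0.000220). *cct6a* followed at 1.01 ± 0.14 (adjusted p = 0.00127) and *cct3* at 0.56 ± 0.10 (adjusted p = 0.0112), the last of them not called without repeat 3 or 4 (adjusted p = 0.0519 and 0.0567). *tcp1*, the first subunit, read -0.17 ± 0.32 and *cct4* read -0.19 ± 0.10, neither called. In each repeat *cct5* exceeded *cct4*, by 1.55, 1.87, 1.91 and 1.78. *cct8* was not called at 0.26 ± 0.13, but its probes were called in opposite directions, at 1.58 and -1.07, and each was on its own side of 0 in every repeat. The 2 probes of *cct7* (2.81 and 0.48) and of *cct5* (2.62 and 0.57) also differed in size. The subunits form 1 complex, and whether the unequal ratios lay in the transcripts or in the probes was not tested.

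The mitochondrial pair diverged. *hspd1*, which encodes Hsp60, had log2 ratios of 0.82, 1.14, 0.57 and 1.24 and a mean of 0.94 ± 0.31 (adjusted p = 0.00413), whereas *hspe1*, which encodes its lid Hsp10, had -0.52, -0.79, -0.85 and -0.84 and a mean of -0.75 ± 0.15 (adjusted p = 0.00429). The genes are direct neighbours in the RefSeq table, and their repeats did not overlap. Within a repeat *hspd1* exceeded *hspe1* by 1.34, 1.94, 1.41 and 2.08. Both *hspe1* probes were called lower, at -0.68 and -0.83, but the *hspd1* probes read 2.04 (called) and -0.16 (not called), and the *hspd1* call was lost with the replicate block (adjusted p = 0.0823) and in the arrays with cornea in Cy5 (adjusted p = 0.351). *dnajc19*, of the import motor at the inner membrane, was lower at -1.14 ± 0.10 (2.20-fold, adjusted p = 0.000693), with repeats from -1.22 to -1.01. Its partner *hspa9* was among the higher genes. Of 8 mitochondrial genes of the set in all, 2 were higher and 2 lower (25% each, against 22.9% and 13.8% of all genes).

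Of 19 ER genes, 5 were higher (*hsp90b1*, *fkbp7*, *dnajb11*, *dnajc1* and *dnajc10*) and 6 were lower (*dnajb14*, *dnajb9a*, *dnajc3b*, *fkbp9*, *fkbp11* and *dnajc3a*). These counts are 26.3% and 31.6%, against 22.9% and 13.8% of all genes, so the share called higher lay near that of all genes. These compartments were assigned after the values had been seen. *dnajb11*, a soluble partner of BiP, had 0.68, 0.66, 0.83 and 1.12 and a mean of 0.82 ± 0.21 (adjusted p = 0.00402). *dnajc10*, a disulfide reductase, was higher at 0.65 ± 0.14 (adjusted p = 0.00729). On the other side stood *dnajb9a*, the copy of a strongly induced target of the unfolded protein response, with -0.64, -1.41, -1.98 and -1.30 and a mean of -1.33 ± 0.55 (2.52-fold lower, adjusted p = 0.00420). Its repeats spread widely but all lay below 0, and both probes were called lower. Its paralogue *dnajb9b* was not called at 0.30, and *dnajb9a* stood below it by between 1.32 and 1.91 in each repeat. *dnajc3b* and *dnajc3a* are copies of the gene for P58IPK, which restrains the kinase PERK. *dnajc3b* was lower at -1.23 ± 0.37 (adjusted p = 0.00210) and *dnajc3a* at -0.44 ± 0.12 (adjusted p = 0.0310). The *dnajc3a* call was lost whichever repeat was left out (adjusted p between 0.0633 and 0.126).

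**Figure D3:**
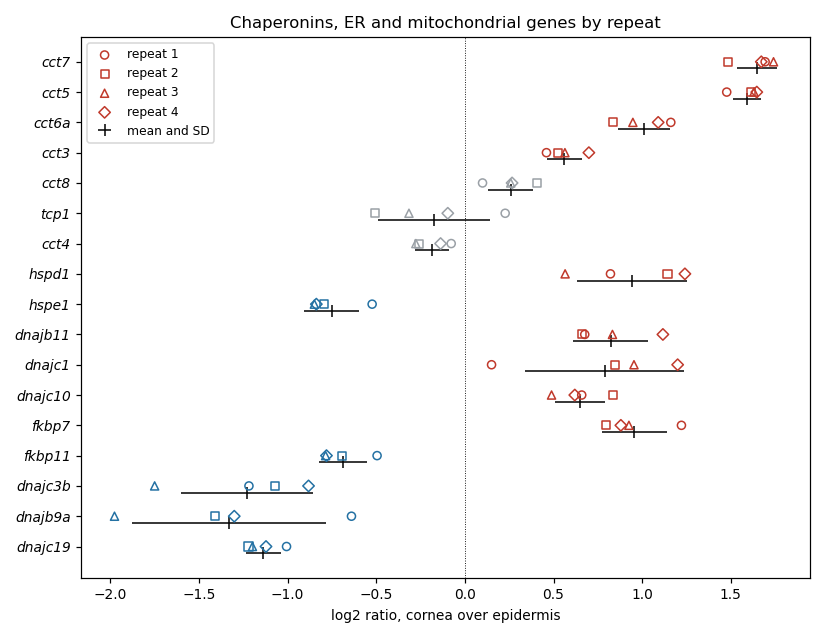
Log2 ratio of cornea over epidermis (horizontal axis) in each of the 4 repeats (open symbols) for chaperonin, ER and mitochondrial genes, with the mean and SD in black beneath; red is called higher in cornea, blue called lower and grey not called. *cct7* and *cct5* lie near 1.6 while *tcp1* and *cct4* lie just below 0, and *hspd1* and *hspe1* fall on opposite sides of 0.

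The immunophilins held the second highest ratio of the set. *fkbp1aa*, a copy of the gene for FKBP12, the receptor of FK506 and rapamycin, had log2 ratios of 2.54, 1.76, 2.55 and 2.59 and a mean of 2.36 ± 0.40 (5.13-fold, adjusted p = 0.000241). Both probes were called higher, at 3.20 and 1.51, and the low value of repeat 2 came from the second of them. The other copy, *fkbp1ab*, was not called at 0.11, and *fkbp1aa* exceeded it by between 1.96 and 2.48 in each repeat. *fkbp5*, an Hsp90 partner and a target of the glucocorticoid receptor, was higher at 1.58 ± 0.14 (2.99-fold, adjusted p = 0.000250), with probes at 3.22 and -0.06. *fkbp4*, the related Hsp90 partner of steroid receptors, was not called at 0.10 ± 0.30. *fkbp3*, a nuclear immunophilin, was higher at 1.37 ± 0.15 (adjusted p = 0.000422), as was *fkbp7* of the ER at 0.96 ± 0.18 (adjusted p = 0.00190). *fkbp1b*, which binds calcium release channels, was higher at 0.59 ± 0.19 but not called without repeat 3 (adjusted p = 0.0527). Lower were *fkbp16* (-0.83 ± 0.20), *fkbp9* (-0.70 ± 0.38) and *fkbp11* (-0.69 ± 0.14), and the *fkbp9* call was lost without repeat 3 or 4 (adjusted p = 0.0561 and 0.0665).

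Probes of the same gene differed for many genes on these arrays. Of the 54 genes of the set with at least 2 probes, 20 (37.0%) had probes of opposite sign, and for 3 of them (*cct8*, *dnaja2a* and *dnajc2*) probes were called in opposite directions (5.56%). Over all 5098 genes with at least 2 probes these shares were 43.5% and 4.45%. Among the genes with at least 2 probes 20 were called higher and 5 lower. Among the 56 with 1 probe, 10 were called higher and 11 lower. This split was not made over all genes, so the contrast is not a result about the set. With 1 probe, the higher genes were *bag3*, *bag6*, *cct3*, *cct6a*, *dnajc5gb*, *dnajc8*, *fkbp1b*, *fkbp7*, *hspa4a* and *hspa4b*. The lower ones were *bag6l*, *dnajb14*, *dnajb1b*, *dnajc19*, *dnajc3a*, *dnajc3b*, *dnajc9*, *fkbp16*, *fkbp9*, *hsf2* and *hsp70l*. Their repeats cannot show whether another probe would read alike. Arrays of this kind give no level of a transcript, and the spot intensities were not used here, so which probes were near background is not known. Ratios of different genes are compared above as differences between tissues, never as amounts.

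**Figure D4:**
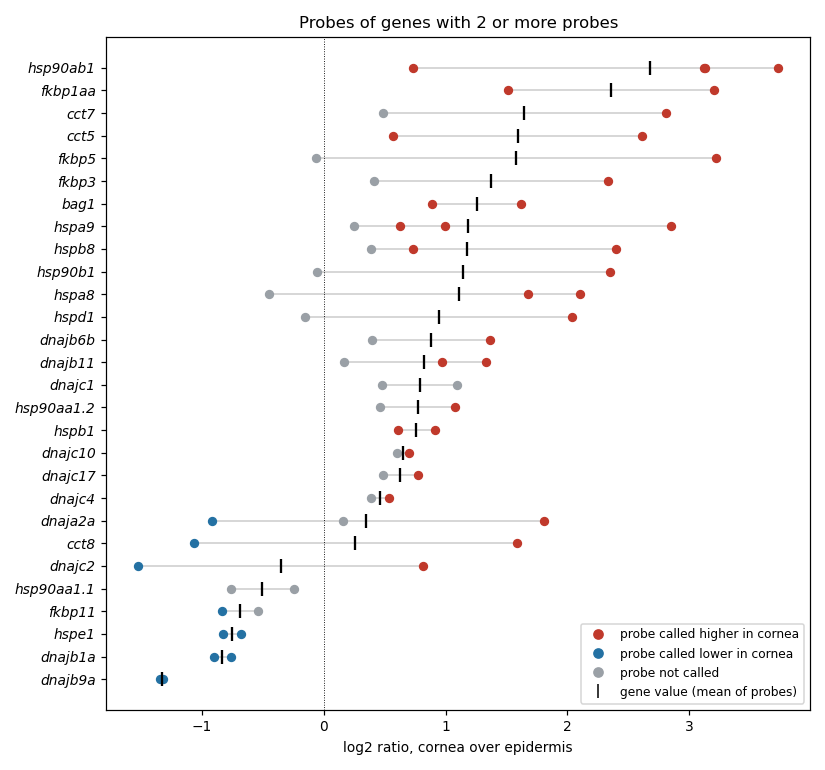
Log2 ratio of cornea over epidermis (horizontal axis, mean of 4 repeats) of every probe of 28 genes: the 25 called genes with at least 2 probes and the 3 genes whose probes were called in opposite directions. Points are probes (red called higher, blue called lower, grey not called), and the black tick is the mean of the gene. *hsp90ab1* has all 4 probes above 0, whereas *hspa8*, *fkbp5*, *hsp90b1* and *hspd1* each have 1 probe below 0.

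Partners of the chaperones that the symbols left out were read from a list of 94 names, of which 70 were measured. Among these 23 were called higher and 13 lower, or 32.9% and 18.6%, with a median of 0.31. Over all genes the shares were 22.9% and 13.8%, and the median was 0.03. On the Hsp90 side, the co-chaperone p23 was represented by *ptges3b*, with log2 ratios between 1.71 and 2.80 and a mean of 2.05 ± 0.50 (adjusted p = 0.000629), and by *ptges3a* at 1.23. The kinase-specific co-chaperone *cdc37* was also higher, at 1.06. Other listed co-chaperones were not called, among them *ahsa1b* (0.39), *ppp5c* (0.26), *sugt1* (0.21), *ppid* (-0.09) and *ahsa1a* (-0.32). *st13* and *pih1d1* were called lower, at -0.73 and -0.48. *vcp*, the segregase p97, which extracts proteins for degradation, had the highest value at 2.67 ± 0.22 (adjusted p = 8.0e-05), and *ddit3*, which encodes CHOP, a transcription factor of the unfolded protein response, followed at 2.29 ± 0.37 (adjusted p = 0.000233). Prefoldin hands actin and tubulin to CCT, and its subunits differed: *pfdn2* was lower at -1.27 ± 0.13 (adjusted p = 0.000511) and *pfdn6* at -0.88, while *pfdn4* was higher at 0.77. The cyclophilins were divided as well, with *ppil3* at -1.75 ± 0.39 (adjusted p = 0.000624) and *ppiaa* at -1.50 ± 0.22 (adjusted p = 0.000437) lower and *ppig*, *ppih* and *ppiab* higher at 1.29, 1.24 and 1.00. In the ER, *p4hb*, *canx* and *calr* were higher at 0.93, 0.62 and 0.58. *xbp1*, the factor that drives much of the unfolded protein response, was lower at -0.58. Of other listed genes of this response, *atf4b* was called higher at 0.94. *atf6*, *ern1*, *atf4a* and *eif2ak3* were not called, at 0.42, 0.48, 0.32 and -0.26. *pdcl*, a cofactor of CCT, was called lower at -1.53 but not of the same sign on all 8 arrays. Nor was *calr*, which was above 0 on 6 of them. Apart from the 3 highest and 3 lowest genes of the same sign on all arrays, the genes named here were chosen after their values had been seen.

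**Figure D5:**
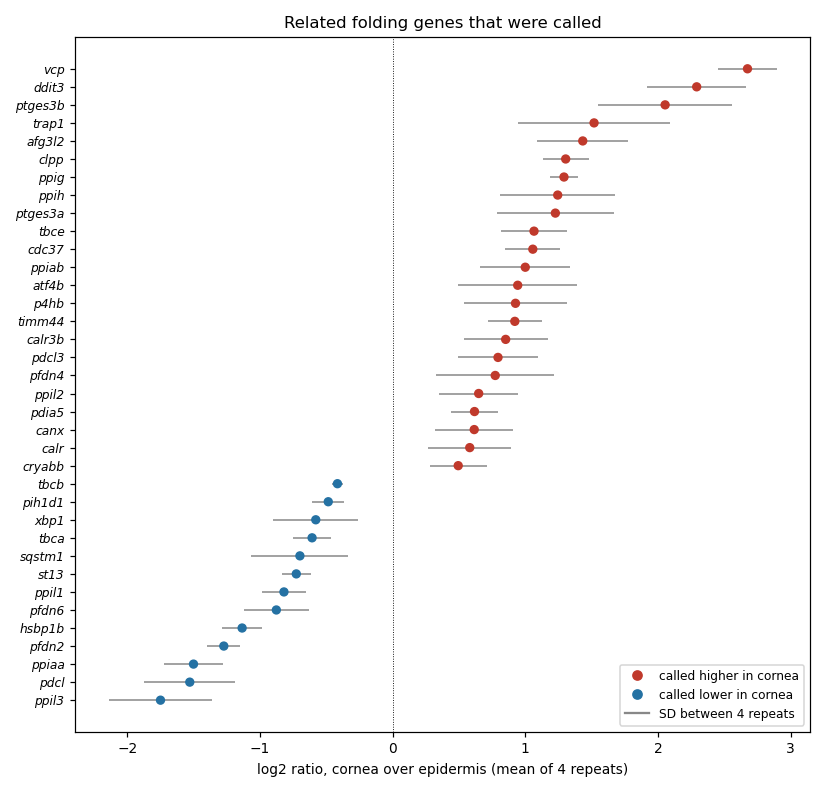
Log2 ratio of cornea over epidermis (horizontal axis, mean of 4 repeats, bars the SD) for the 36 related folding genes that were called, in order of their value. Red points were called higher in cornea (23 genes, from *cryabb* at 0.49 to *vcp* at 2.67) and blue points lower (13 genes, from *ppil3* at -1.75).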

How the data were processed

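Cornea and epidermis were hybridised together on 8 two-colour Agilent arrays (4 repeats, each with a dye swap). Scanning was done with GenePix. The authors then processed the spots in limma, with the minimum method for the background, a normalisation within each array and the Aquantile method between arrays. The limma version they used is not given in the sources. The deposited log2 ratios, 1 for each of 45220 features and array, were used as they are. Their log base was taken as 2, as limma writes it, since none is stated. Opposite dyes of the same repeat correlated at r between 0.390 and 0.515, which shows that all arrays run in the same direction. No intensities were used, so which probes were above background is unknown. The number of arrays limits the precision.

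Feature numbers matched the platform annotation only after the probe grid of 532 by 85 places had been rearranged. With it the first 2 probes of a gene correlated at 0.34 over 5098 genes, and at 0.0191 with the numbers as given. Over the 54 genes of the set with at least 2 probes these values were 0.268 and -0.0997. All gene names hold only if this layout is right. It gave 21061 probes with 1 symbol and 14462 genes, and 24159 features without a gene name, control spots among them. The RefSeq table, of another build, was used only for names and neighbours, and all 110 genes were found in it.

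Both arrays of a repeat hold the same extracts and were averaged, so that n = 4. By design the repeat number pairs these arrays. Their deviations from the mean of their dye orientation gave r of 0.0213 to 0.0899, against -0.0924 to 0.0370 for arrays of different repeats. These ranges overlap and lie near 0, so the pairing rests on the labels. Nothing in the labels says how the animals of the repeats were separated, beyond calling them biological repeats. The test was run as lmFit and eBayes of limma (version 3.58.1) under R (version 4.3.3). The fit was also run on simulated gene values, drawn as independent noise with each gene's SD and with shifts added to some genes. They held no separate probes, dyes or probe layout, so that run cannot speak to these. Python 3.11.15 and matplotlib 3.10.9 drew the figures. Named genes were 27 measured of 31 listed key genes, whatever their value, and in each class up to 4 genes with the largest called ratios of the same sign on all 8 arrays, plus 3 higher and 3 lower related genes. Other names were added after their values were seen, and so were the pairs of genes compared. The members and lists were chosen with earlier results of these data known. Alternatives were single repeats left out, the replicate block with a dye term, slides, dyes, probe summaries, normalisations, a fold threshold, robust variances and the unrearranged numbers.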

Additional observations from a re-analysis of the deposited data

Results flagged for a closer look

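In 6 of the 46 named genes, 1 repeat stood apart from the other 3, which chance gives in about 1 of 20 genes. Repeat 2 of *fkbp1aa* had a log2 ratio of 1.76, and its other repeats 2.54 to 2.59. That of *dnajc8* was 0.84 in repeat 1, against 1.18 to 1.23. *hsf2* read -1.46 in repeat 2, the others lying between -1.76 and -1.71. *hspe1* read -0.52 in repeat 1, and -0.85 to -0.79 elsewhere. *stip1* was at -0.46 in repeat 1 and between -0.10 and -0.04 in the rest. *ptges3b* read 2.80 in repeat 4, against 1.71 to 1.88. All of these repeats had the sign of their gene's mean.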

How the results depend on the processing

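Among the 110 genes, leaving out 1 repeat gave 26 to 32 calls higher and 12 to 14 lower, and a median between 0.0801 and 0.113. Over all genes it gave 2466 to 2975 higher and 1329 to 1879 lower (1329 without repeat 3), and of the related genes 18 to 21 higher and 9 to 11 lower. The replicate block with a dye term called 33 genes of the set higher and 19 lower, 44 of them among the 46, and 3473 and 2135 of all genes. It moved no count by more than 1.5 times, and among the named genes it ended the calls of *hspd1* and *hsp90aa1.1* and made one of *hspa5*.

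With slide 1 alone, 14 genes of the set were called higher and 6 lower, 1400 and 639 of all genes, and 9 and 5 of the related genes. Slide 2 alone called 2190 and 1224 of all genes. Each slide holds 2 repeats. Slide 2 alone called 23 genes of the set higher and 12 lower, and the slide as a random block 35 and 21. With a fold threshold of 1.2, 1176 of all genes and 8 of the related genes were called lower. With cornea in Cy3 only, 8 related genes were called lower. With feature numbers as given, 18 genes of the set were called higher and 3 lower, 1944 of all genes higher, and 6 related genes higher and 7 lower. Taking the probe of smallest variance called 30 genes of the set higher and 24 lower, against 30 and 16 in the main fit. Of all genes it called 2448 lower, against 1994 in the main fit. It gave a median of 0.0160 and turned the signs of *cct8* (-1.07), *hsp90b1* (-0.0589) and *hspa8* (-0.45). In this setting *cct8* and *hspa8* were called lower (adjusted p = 0.00115 and 0.0252), and *hsp90b1* was not called (adjusted p = 0.802). The same setting also ended the calls of *hspa9* (adjusted p = 0.151) and *fkbp3* (adjusted p = 0.0513). The arrays with cornea in Cy5 ended that of *bag3* (adjusted p = 0.0642). Of the genes with at least 2 probes and none called in opposite directions, 20 were higher and 5 lower, a count chosen after seeing the data. The cause of these shifts was not tested. Called the same way in all settings, except those within 1 slide, the filter on probe signs and the numbers as given, were 27 genes of the set, 16 higher and 11 lower. No spot intensities were used, so dim probes could not be set aside.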
